A study of Caenorhabditis elegans with 24 samples.

Results

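Argonaute proteins carry small RNAs to matching transcripts, and 10 genes for such proteins with a known role in the germline or the nucleus of Caenorhabditis elegans are described here: hrde-1 (C16C10.3), csr-1 (F20D12.1), prg-1 (D2030.6), ergo-1 (R09A1.1), alg-3 (T22B3.2), alg-4 (ZK757.3), wago-1 (R06C7.1), nrde-3 (R04A9.2), ppw-2 (Y110A7A.18) and wago-4 (F58G1.1). They were chosen by these names and sequence identifiers. Each of the 10 was found as a single transcript among 20167 measured genes, and all 10 were among the 19839 genes tested, whose mean reached 1 RPKM or more. RPKM is the number of reads per unit length of exon, scaled to the total reads of the library. The quantity measured is small RNA antisense to the mRNA of each gene, called its siRNA below. It is therefore siRNA directed at the Argonaute genes themselves and not the level of their mRNA or protein, or the siRNA that the proteins bind.

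Worms make most of their siRNA by copying an mRNA into short antisense RNAs with RNA-dependent RNA polymerases, and worm-specific Argonautes (WAGOs) then bind these secondary siRNAs. HRDE-1 takes them into germline nuclei, where it represses transcription and helps silencing to pass to later generations. WAGO-1, WAGO-4 and PPW-2 act in the germline cytoplasm, and NRDE-3 is a nuclear Argonaute of the soma. CSR-1 binds siRNA against most genes that the germline expresses. Upstream of the WAGOs, PRG-1 binds piRNAs, ERGO-1 binds primary siRNAs in oocytes and embryos, and ALG-3 and ALG-4 bind primary siRNAs during sperm formation.

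Whole young gravid adults were sampled from N2, the wild type (WT), and from hrde-1(tm1200) worms (the mutant) over 12 generations. Both strains spent 3 generations at 15 °C (15C-G1 to G3, phase I), 6 at 23 °C (23C-G1 to G3, phase II, and 23C-G4 to G6, phase III) and then 3 more at 15 °C (phase IV, p15C-G1 to G3), on OP50 bacteria throughout. Each generation gave 1 library per genotype, so the 24 libraries come from 1 lineage per genotype, and p-values reflect the variation from generation to generation within a lineage and nothing wider. Adults were collected 114 to 120 h (15 °C) or 50 to 55 h (23 °C) after first-stage larvae were put on plates, so temperature and hours of growth cannot be told apart. The labels name no allele other than tm1200 for either strain. In whole animals, fewer cells of a type and less siRNA per cell cannot be told apart. Since siRNA over a marker gene is not its expression, the tissues sampled could not be checked against markers.

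The smallest steps between low values gave an inferred total of 299500 to 1043000 reads per library. At this depth prg-1, wago-4, hrde-1, csr-1 and ppw-2 rested on at least 168 reads in every library and wago-1 on at least 67.1. Far fewer reads lay behind ergo-1 (17 to 90), nrde-3 (6 to 25), alg-4 (1.0 to 32.3) and alg-3 (1.0 to 21.2). No value was exactly 0, and 1282 transcripts lay at the smallest value in every library, so 1 inferred read may stand for none. The inferred totals were also far below the tag numbers the study gives, and the read numbers here are therefore units of the smallest step and not known counts. In the mutant the 23 °C libraries (346700 to 479200 reads) were shallower than all those at 15 °C (510000 to 771800), whereas in WT the ranges overlapped (299500 to 716200 at 23 °C and 369700 to 1043000 at 15 °C). PCR copies were not marked, so read numbers overstate the count of molecules.

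The members fell into a well-measured and a scarce group. In WT the mean over 12 generations was 428 ± 34.4 RPKM (SD, n = 12) for prg-1, 325 ± 40.5 for wago-4, 287 ± 21.1 for hrde-1, 240 ± 55.1 for csr-1 and 207 ± 25 for ppw-2. These 5 genes had more siRNA than 96.9% to 98.5% of all genes. After wago-1 at 82.6 ± 9.71 RPKM came ergo-1 at 22.1 ± 5.22, nrde-3 at 6.88 ± 1.5, alg-4 at 4.02 ± 2.23 and alg-3 at 3.08 ± 2.06. The steps from ppw-2 to wago-1, from wago-1 to ergo-1 and from ergo-1 to nrde-3 showed no overlap between the 12 values of each gene. All other neighbours in this order overlapped in range, although prg-1 exceeded wago-4 in 12 of 12 WT libraries. In the mutant hrde-1 moved below csr-1 and ppw-2 but stayed above wago-1 in 11 of 12 libraries. The 10 genes together took 0.450% to 0.587% of reads in WT and 0.485% to 0.662% in the mutant.

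**Figure D1:**
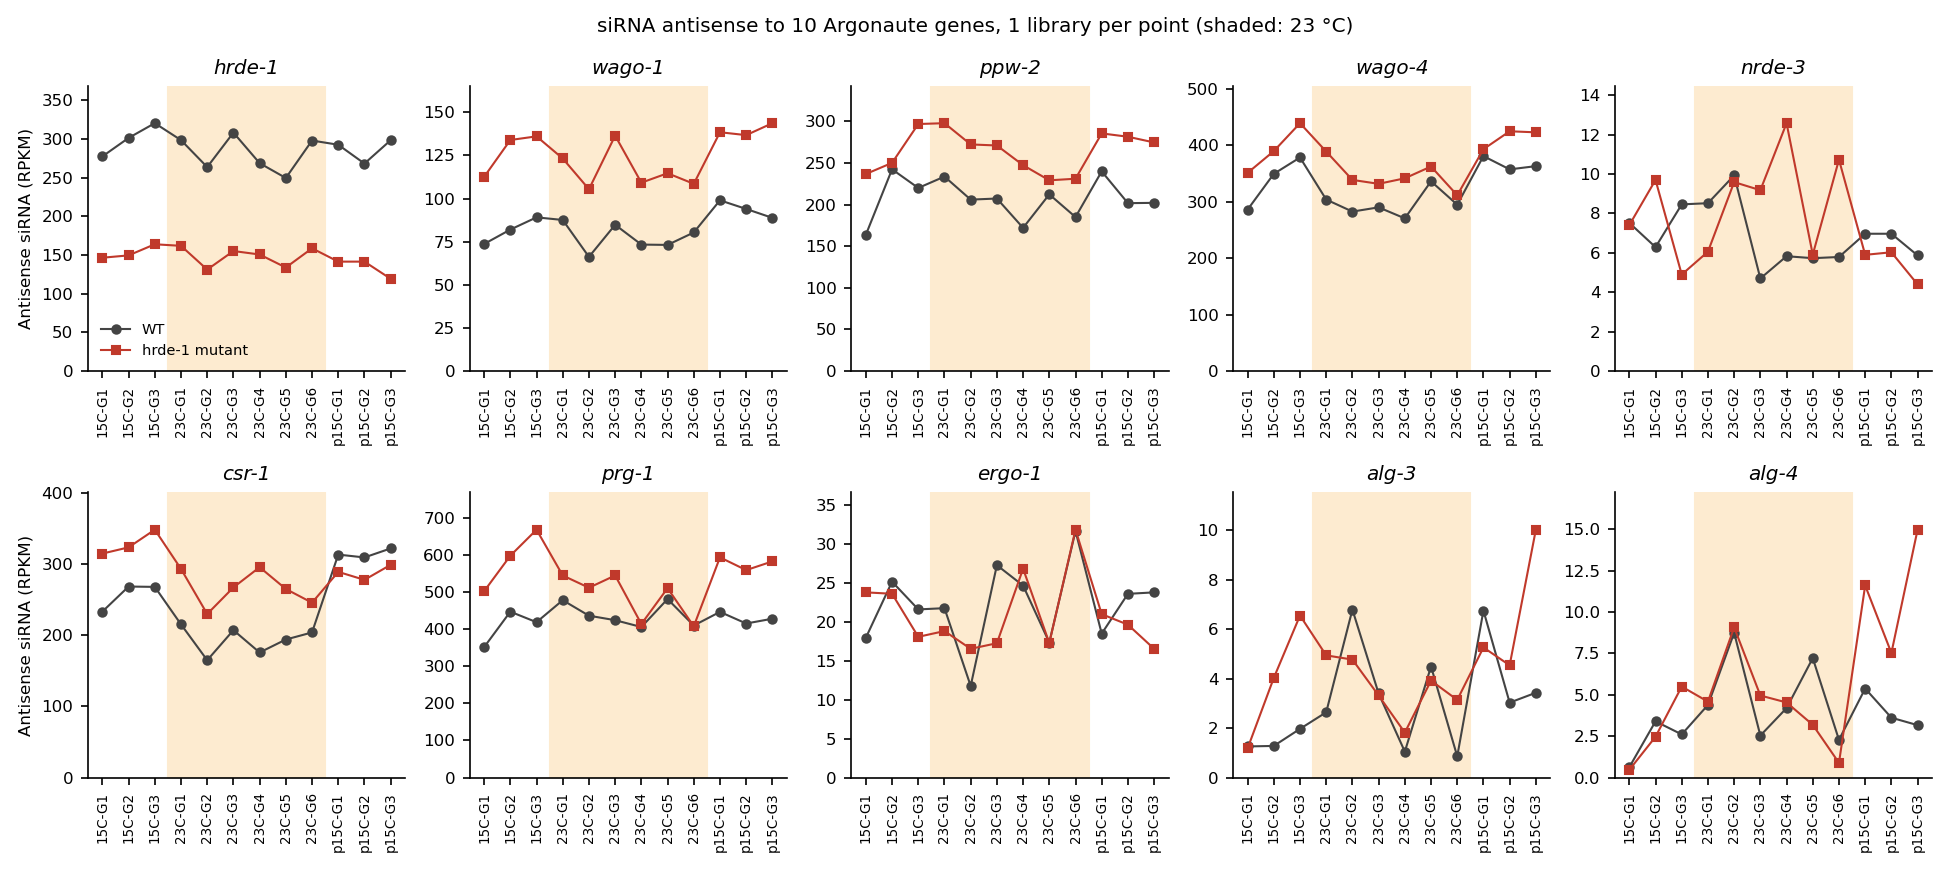
Antisense siRNA in RPKM (vertical axis, from 0) for each Argonaute gene over the 12 generations (horizontal axis). Grey circles are WT, red squares the hrde-1 mutant, each point is 1 library and the shaded generations were at 23 °C. The genotypes are fully separate for hrde-1 and wago-1, csr-1 dips at 23 °C in both genotypes, and alg-3, alg-4, nrde-3 and ergo-1 vary widely from library to library.

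Of the well-measured genes, hrde-1 was lower and 5 others were higher in the mutant over the 4 phases. Over all phases hrde-1 siRNA was 0.510-fold of WT. wago-1 rose 1.51-fold, ppw-2 1.28-fold, prg-1 1.24-fold, csr-1 1.22-fold and wago-4 1.16-fold. These 6 passed an adjusted p of 0.1 (limma, adjusted over all tested genes), and the scarce genes ergo-1, nrde-3, alg-3 and alg-4 did not. Among all tested genes 12% passed as higher and 11.2% as lower in this comparison, against 5 and 1 of the 10 members. None of the 10 also reached a 2-fold change, which 5.91% of all genes did. The median log2 fold change was 0.28 over the members, 0.00 over all tested genes and 0.07 over genes that averaged 10 RPKM or more.

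hrde-1, the gene that carries the mutation, had less siRNA in every generation of the mutant. In WT its siRNA was 278, 301 and 321 RPKM at 15C, then 299, 264 and 308 (phase II) and 269, 249.7 and 298 (phase III), and lastly 293, 268 and 299 at p15C, in order of generation. The mutant had 147, 149.6 and 164, then 162, 131 and 155, then 151, 134 and 159, and lastly 141.55, 141.55 and 119.36 RPKM. Every mutant library lay below every WT library. The ratio of mutant to WT in the same generation ran from 0.400 (p15C-G3) to 0.561, with a median of 0.520. For phases I to IV the log2 fold changes were -0.96, -0.95, -0.88 and -1.09, each with an SE of 0.12 (adjusted p = 3.39e-06, 4.24e-06, 1.39e-05 and 4.55e-07). A 2-fold call, made only in phase IV, was also made in phase I without WT 15C-G1 or mutant 15C-G3 and in phase II without WT 23C-G2 or mutant 23C-G1. The sources used here do not say which stretch of the gene tm1200 affects. Loss of the template for siRNA and a change in siRNA production cannot be told apart, and the drop checks the labels only within this limit. siRNA over hrde-1 was thus retained in the mutant at 50.9% of the WT mean.

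wago-1, a cytoplasmic germline Argonaute of the WAGO group, had more siRNA in the mutant in each of the 12 generations. WT held 73.7, 82.0 and 89.1 RPKM at 15C, then 87.6, 66.2 and 84.8 (phase II) and 73.3, 73.1 and 80.3 (phase III), and lastly 99.0, 94.0 and 88.8 at p15C. In the mutant the values were 113, 134 and 136, then 123, 105 and 136, then 109, 115 and 109, and lastly 138, 137 and 144 RPKM. As for hrde-1, no mutant library overlapped a WT library, but in the opposite direction. Its log2 fold changes were 0.64, 0.61, 0.55 and 0.57 for phases I to IV, each with an SE of 0.14 (adjusted p = 0.00286, 0.0053, 0.012 and 0.00744). wago-1 was the only member besides hrde-1 that passed in all 4 phases.

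ppw-2, which acts in transposon silencing in the germline, and wago-4, which carries inherited silencing between generations, differed less. ppw-2 siRNA ranged from 164 to 242 RPKM in WT (median 207) and from 229 to 298 in the mutant (median 272). The mutant was higher in 12 of 12 generations, by ratios of 1.03 to 1.45, and the phases did not overlap in II, III and IV. Its log2 fold change of 0.39 ± 0.13 passed in phase IV (adjusted p = 0.0795), and this pass was lost (adjusted p = 0.153 to 0.248) without WT p15C-G2, WT p15C-G3 or any of the 3 mutant p15C libraries. Phases I to III did not pass, but all 3 did among genes averaging 5 reads or more (0.33, 0.38 and 0.32, adjusted p = 0.0708, 0.0462 and 0.0964). Phase II also passed with 1 read taken off (0.0759) or without WT 23C-G1 (0.0962), and phase I without WT 15C-G2 (0.0559). The phases that pass for ppw-2 thus depend on the filter and on single libraries. wago-4 ran from 271 to 381 RPKM in WT (median 320.2) and from 312 to 439 in the mutant (median 376). It too was higher in the mutant in 12 of 12 generations, by ratios of 1.03 to 1.28, but passed in no single phase.

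prg-1, the piRNA-binding Argonaute, was higher in the mutant at 15 °C and close to WT late at 23 °C. At 15 °C before the shift the values were 351, 447 and 419 RPKM in WT and 502, 598 and 668 in the mutant. In 23C-G4 to G6 they were 406, 481 and 409.5 in WT and 414, 510.1 and 408 in the mutant, and back at 15 °C 446, 415 and 428 in WT and 593, 559 and 582 in the mutant. The genotypes overlapped in phase III but in no other phase. For phases I to IV the prg-1 log2 fold changes were 0.53, 0.26, 0.04 and 0.43, each with an SE of 0.12, and those of phases I and IV passed (adjusted p = 0.00321, 0.269, 0.86 and 0.0199). The annotation places D2030.12 on the opposite strand across part of prg-1, so some prg-1 antisense reads may be sense reads of that gene. Reads shared with the close paralog prg-2 may also count here, since the sources used here do not say how such reads were treated.

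csr-1, whose protein binds siRNA against germline-expressed genes and is needed for chromosome segregation, was higher in the mutant until the return to 15 °C. Phase I values were 233, 269 and 268 RPKM in WT and 315, 324 and 348 in the mutant. At 23 °C WT held 215, 165, 207, 176, 194 and 204 RPKM, and the mutant 293, 229.9, 267, 296, 265 and 246. After the return WT held 313, 309 and 322 RPKM, all above the 289, 278 and 299 of the mutant. The genotypes did not overlap in any phase, and the order was turned in phase IV. The csr-1 log2 fold changes for phases I to IV were 0.36, 0.43, 0.49 and -0.13, each with an SE of 0.12, and the first 3 passed (adjusted p = 0.0668, 0.0293, 0.0101 and 0.752). The phase I pass was lost without WT 15C-G1, mutant 15C-G2 or mutant 15C-G3 (adjusted p = 0.123 to 0.243) and with median-of-ratios scaling (0.157), and the phase II pass without WT 23C-G2 or mutant 23C-G1 (0.212 and 0.168). In the annotation csr-1 overlaps frpr-10 on the same strand, so reads in the shared stretch cannot be assigned to either gene.

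The scarce genes did not pass between genotypes in any phase. ergo-1 siRNA ranged from 11.8 to 31.7 RPKM in WT (median 22.7) and from 16.54 to 31.8 in the mutant (median 19.2), with the mutant higher in 5 of 12 generations. nrde-3 ran from 4.70 to 9.93 RPKM in WT and from 4.40 to 12.6 in the mutant, again higher in the mutant in 5 of 12. The 3 mutant values of nrde-3 in phase III (12.6, 5.91 and 10.73 RPKM) lay above the WT values (5.83, 5.73 and 5.79), with a log2 fold change of 0.61 ± 0.30 that did not pass (adjusted p = 0.340). These 6 values rest on 6 to 15 reads each. pei-2 lies on the opposite strand across part of ergo-1.

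**Figure D2:**
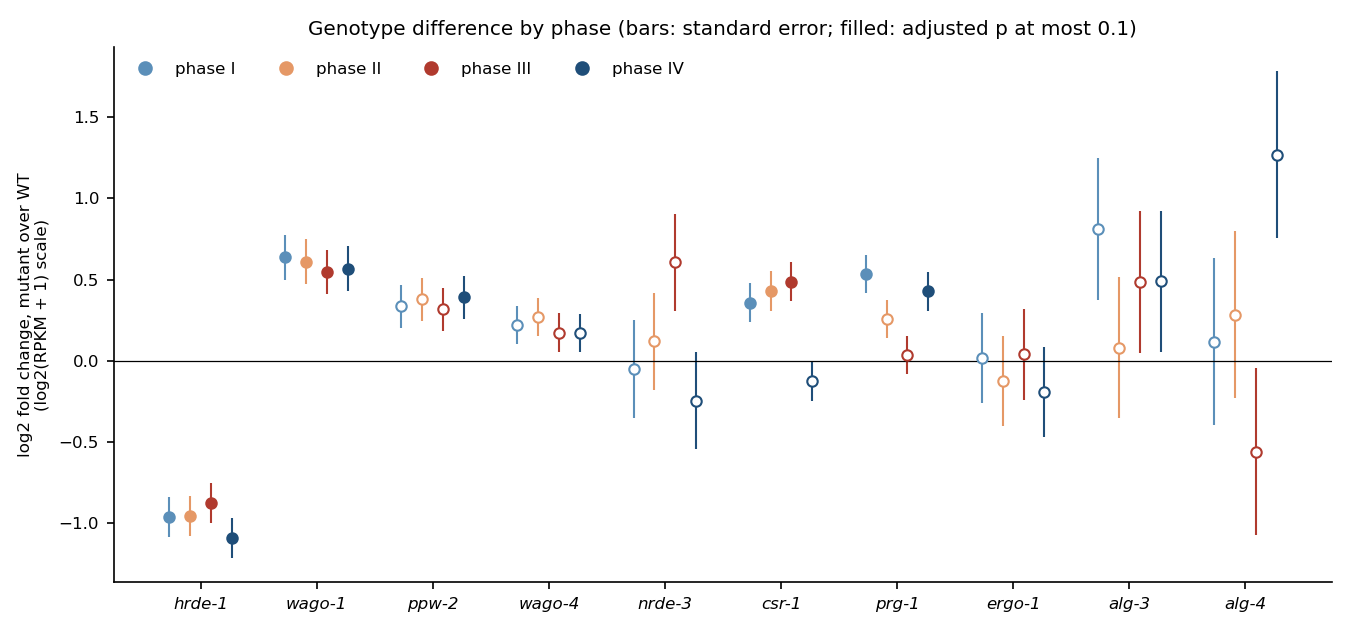
The log2 fold change of siRNA in the mutant over WT (vertical axis) for each Argonaute gene (horizontal axis) in phases I to IV, with standard errors as bars. Filled points passed an adjusted p of 0.1. hrde-1 lies between -0.88 and -1.09, wago-1 between 0.55 and 0.64, and csr-1 passes in phases I to III but not in IV.

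By phase, csr-1, prg-1 and wago-1 passed as higher in phase I (3 members), csr-1 and wago-1 both in phase II and in phase III (2 members each), and prg-1, wago-1 and ppw-2 in phase IV (3 members). hrde-1 was the only member to pass as lower in each. Over all tested genes the share that passed as higher was 6.05%, 4.41%, 4.45% and 5.02% in phases I to IV, and the share that passed as lower was 6.55%, 4.6%, 4.81% and 6.18%. At 2-fold, hrde-1 in phase IV was the only call among the members, while 7.82%, 5.7%, 5.85% and 7.99% of all genes were called in phases I to IV. The median log2 fold change over the members was 0.28, 0.26, 0.25 and 0.28 in the 4 phases, against -0.19, 0.14, 0.11 and 0.07 over all tested genes and 0.10, 0.09, 0.06 and 0.00 over genes that averaged 10 RPKM or more.

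siRNA summed over the oocyte or the somatic genes of the lists was also higher in the mutant. Summed over the 10 oocyte genes of the list it was 849 to 991 RPKM in WT and 1100 to 1140 in the mutant in phase I, and 756 to 923 against 933 to 1120 in phase III. No phase showed an overlap between the genotypes in this sum. All 10 oocyte genes were tested, and 4 passed as higher and none as lower over the 4 phases, beside 12% and 11.2% of all tested genes. In phase IV none of the 10 passed, and their median log2 fold change of 0.07 was that of all tested genes (0.07). Across the 24 libraries the sum followed wago-1 and csr-1 (r = 0.85 for each on the log2 scale, n = 24 libraries that share the genotype and temperature steps). The sum over 13 somatic genes was 99.2 to 130 RPKM (WT) against 141 to 157 (mutant) for phase I, 116 to 159 against 175 to 252 in phase III and 124 to 131 against 261 to 288 in phase IV, without overlap, but overlapped in phase II (91.4 to 155 and 145 to 169). It had r of 0.71 with wago-1 and -0.76 with hrde-1 over the same 24 libraries. Of its genes unc-119, a neuronal gene, averaged 61, 76.7 and 134 RPKM in mutant phases I to III, beside 26.5, 39.1 and 58.3 in WT. In phase IV it reached 173 ± 9.09 RPKM in the mutant, beside 29.1 ± 6.31 in WT (SD, n = 3). The genotype difference in the somatic sum thus lay largely in this gene. Of the 11 tested somatic genes 2 passed as higher and 1 as lower over the 4 phases, beside 12% and 11.2% of all tested genes. Their median log2 fold change was -0.02. The part of either sum in the member differences was not tested.

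Temperature was examined by setting 23C-G2 to G6 against 15C-G1 to G3 in each genotype, with 23C-G1 kept apart because its parents had lived at 15 °C. The comparisons with phase I below share those 15C libraries. The study checked the temperature shift with the mRNA of the heat shock gene hsp-16.48, among others, and here only its siRNA is given. That siRNA held 6.91 to 15.7 RPKM at 15C and 25.3 to 128 in 23C-G2 to G6 of WT. In the mutant the values were 3.00 to 12.9 and 60.5 to 100.8, and neither genotype showed an overlap. csr-1 fell in both genotypes. In WT the 5 libraries from 23C-G2 to G6 held 165 to 207 RPKM against 233 to 269 at 15C, a log2 fold change of -0.44 ± 0.10 (adjusted p = 0.00511). In the mutant they held 229.9 to 296 RPKM against 315 to 348, a change of -0.34 ± 0.10 (0.0168), which was just lost without mutant 15C-G3 (0.102). No 23 °C library overlapped the 15C libraries of its genotype. The 15C and 23C-G4 to G6 libraries of WT were of like depth (369700 to 502900 and 299500 to 552900 reads), whereas those of the mutant were deeper at 15C (510000 to 771800 against 346700 to 443000). Across the 24 libraries csr-1 siRNA rose with depth (r = 0.53 on the log2 scale, with depth and temperature linked). The part of depth in the csr-1 falls was not tested.

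In the mutant prg-1 and wago-4 also fell at 23 °C, where its libraries were shallower than at 15C. Across the 24 libraries both rose with depth (r = 0.32 for prg-1 and 0.52 for wago-4 on the log2 scale, with depth and temperature linked). The part of depth in these falls was not tested. prg-1 held 511, 544, 414, 510.1 and 408 RPKM in 23C-G2 to G6 against 502 to 668 at 15C, so the ranges overlapped. Its log2 fold change was -0.30 ± 0.11 (adjusted p = 0.0385), and -0.21 (0.211) without mutant 15C-G3. The wago-4 change of -0.22 ± 0.10 passed narrowly (0.0942) and was lost without any one of mutant 15C-G2, 15C-G3, 23C-G2, 23C-G3, 23C-G4 or 23C-G6 (0.118 to 0.378) and under 5 other settings (0.103 to 0.163). Without mutant 15C-G3 no member passed in this comparison. In WT prg-1 was 0.09 ± 0.11 and wago-4 -0.19 ± 0.10, and neither passed, although wago-4 did without WT 15C-G1 (-0.31, 0.0836).

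Thus 1 member passed as lower in WT and 3 in the mutant, and none passed as higher. Over all tested genes 6.39% passed as higher and 5.37% as lower in WT, and 35.6% and 7.86% in the mutant. No member reached 2-fold, which 6.58% of all genes did in WT and 6.41% in the mutant. The median over all genes moved by 0.10 in WT and 0.31 in the mutant on the log2 scale, but by 0.03 and -0.04 over genes that averaged 10 RPKM or more. The difference between genotypes in the 23 °C response passed for no member (1.45% of all genes passed as higher, 1.64% as lower and 2.52% at 2-fold). For prg-1, which had the smallest p among the members, it was -0.40 ± 0.16 (adjusted p = 0.25), and for csr-1 0.10 ± 0.14 (0.688).

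**Figure D3:**
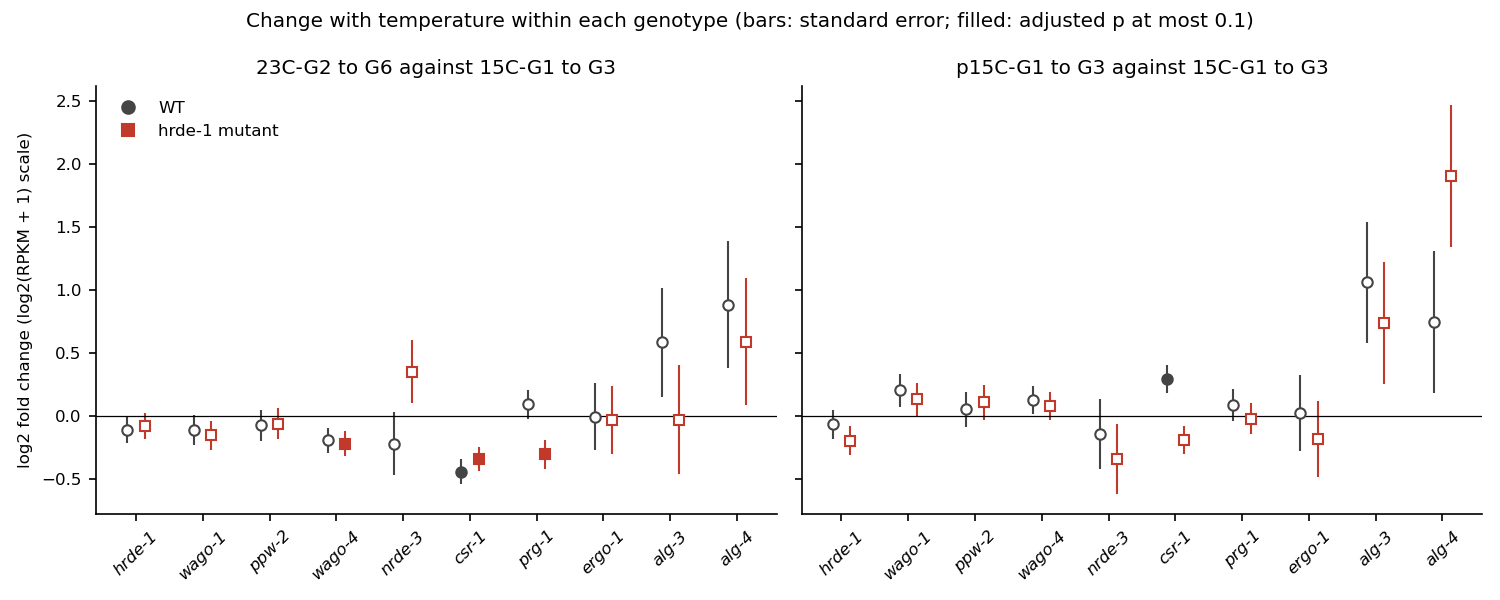
The log2 fold change of siRNA against 15C-G1 to G3 (vertical axis) for each Argonaute gene (horizontal axis), for 23C-G2 to G6 on the left and p15C-G1 to G3 on the right. Grey circles are WT and red squares the mutant, bars are standard errors and filled points passed an adjusted p of 0.1. csr-1 lies below 0 in both genotypes at 23 °C, and after the return lies at 0.30 in WT and -0.19 in the mutant.

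After the return to 15 °C csr-1 lay above its 15C-G1 to G3 level in WT and below it in the mutant. From phase III to phase IV its mean rose in both, from 191 to 315 RPKM in WT and from 269 to 289 in the mutant. All 3 WT p15C libraries (309 to 322 RPKM) lay above the 3 WT 15C libraries (233 to 269), and all 3 mutant p15C libraries (278 to 299) lay below the mutant 15C libraries (315 to 348). The WT change of 0.30 ± 0.11 passed narrowly (adjusted p = 0.0881), and the pass was lost in each of the 6 fits without 1 of its libraries (0.109 to 0.323) and with median-of-ratios scaling (0.17, 0.242). In the mutant the change was -0.19 ± 0.11 (0.679). The difference between them, -0.48 ± 0.16, had an unadjusted p of 0.00531 and did not pass after adjustment (0.218). The WT p15C libraries included the deepest of all (583800 to 1043000 reads), and csr-1 siRNA rose with depth across the 24 libraries (r = 0.53 on the log2 scale, n = 24, with depth and temperature linked). The part of depth in this change was not tested.

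csr-1 in WT was the only pass among the members after the return, and none passed in the mutant or for the difference between genotypes. In WT 4.48% of all tested genes passed as higher, 18.4% as lower and 3.58% at 2-fold. In the mutant these shares were 1.6%, 0.938% and 1.83%, and for the difference between genotypes 0.756%, 0.469% and 1.05%. hrde-1 itself returned to within -0.06 ± 0.11 of its 15C level in WT and lay at -0.20 ± 0.11 in the mutant.

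Over 23C-G1 to G6, slopes per generation on the log2 scale passed for no member in either genotype. The shares of all genes that passed were 0.192% with a rise and 0.328% with a fall in WT, and 0.711% and 0.459% in the mutant. hrde-1 had slopes of -0.01 ± 0.04 in WT and 0.00 ± 0.04 in the mutant. The steepest slope of a member was that of alg-4 in the mutant, -0.33 ± 0.12 (adjusted p = 0.407). Its values there were 4.59, 9.08, 4.96, 4.54, 3.19 and 0.89 RPKM, the last of them about 1 read.

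alg-3 and alg-4, paralogs that act together in sperm formation, varied most for their level, with an SD of 2.06 on a mean of 3.08 RPKM for alg-3 and of 2.23 on 4.02 for alg-4 in WT. alg-4 held 0.63, 3.40 and 2.61 RPKM in WT and 0.47, 2.47 and 5.50 in the mutant in phase I. In phase IV it held 5.38, 3.62 and 3.17 in WT and 11.6, 7.53 and 15.0 in the mutant. All mutant p15C libraries lay above the mutant 15C libraries and above WT p15C, but neither the change from 15C (1.90 ± 0.56, adjusted p = 0.110) nor the genotype difference in phase IV (1.27 ± 0.51, 0.158) passed. The latter passed with a pseudocount of 10 RPKM (0.59, 0.0294). The former rests on 1.02 to 13.8 reads at 15C against 15.4 to 32.3 after the return. It passed without mutant 15C-G3 (2.41, adjusted p = 0.0356), with a pseudocount of 10 RPKM (0.74, 0.0414) and among genes averaging 5 reads or more (1.90, 0.0670). alg-3 ran from 0.86 to 6.79 RPKM in WT and from 1.18 to 10.02 in the mutant, and its genotype difference in phase I passed only without mutant 15C-G1 (1.31, adjusted p = 0.0596).

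Both followed the siRNA over sperm genes. On the log2 scale r with the sum over 15 sperm genes was 0.89 for alg-3 and 0.80 for alg-4, and r between alg-3 and alg-4 was 0.70 (0.66 after taking off the group means, n = 24 in each). Many alg-3 values fell on 0.5 steps of a read, 18 of 24 on whole or 0.5 steps, so reads may have been divided between genes, and the values of these paralogs are uncertain. The sperm sum itself ran from 101 to 206 RPKM in WT phase I, 120 to 653 in mutant phase I, 275 to 430 in WT phase IV and 391 to 605 in mutant phase IV. Its part in the alg-3 and alg-4 values was not tested. A rise with the sperm sum was also seen for prg-1 (r = 0.68), ppw-2 (0.56) and wago-4 (0.52). ergo-1, on 17 to 90 reads, had r of -0.61 with the sperm sum and -0.63 with alg-3, but only 0.30 with the oocyte sum.

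**Figure D4:**
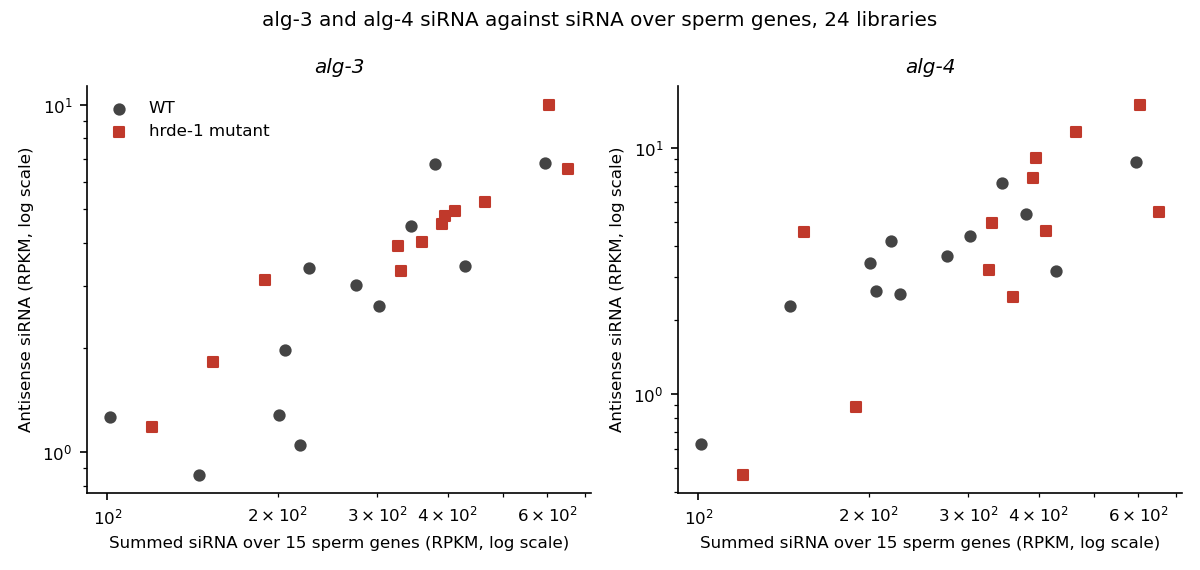
siRNA of alg-3 (left) and alg-4 (right) in RPKM against the sum over 15 sperm genes in RPKM, both on log axes. Each point is 1 of 24 libraries, with WT as grey circles and the mutant as red squares. Both genes rise with the sperm sum in either genotype (r = 0.89 and 0.80 over both genotypes).

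Genes whose siRNA pattern was most like each member were sought among the 8396 genes that averaged 10 RPKM or more, by Pearson's r of log2(RPKM + 1) over 24 libraries. hrde-1 was most like Y54G2A.21 (r = 0.957), trp-4 (0.955), cdh-12 (0.955), R08E3.3 (0.954) and T13C5.6 (0.954), all of which share the step between genotypes. wago-1 was most like maph-1.2 (0.945) and maph-1.3 (0.926), wago-4 like frl-1 (0.955) and K12D12.5 (0.950), and ppw-2 like Y57A10A.31 (0.908) and snpc-3.3 (0.887). For csr-1 the genes were unc-116 and F01G4.4 (0.928 each), and for prg-1 cdk-1 (0.912) and snpc-3.2 (0.891). alg-3 was most like the sperm genes ssp-16 (0.930) and msp-79 (0.909), and alg-4 like C17H12.3 (0.889) and C15H7.3 (0.879). The weakest matches were those of ergo-1 with htip-2 (0.752) and cosa-1 (0.727) and of nrde-3 with acbp-5 (0.697) and scrt-1 (0.691).

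Among 13 other Argonaute genes, sago-1 and wago-10 had calls at 2-fold. In phase IV 1 of the 13 was called as higher and 1 as lower, beside 7.99% of all genes in either direction. sago-1, an Argonaute that binds secondary siRNAs in the soma, held 9.3 to 10.8 RPKM in WT and 5.51 to 8.52 in the mutant in phase I. From 23C-G1 to G6 it was at 1.02 to 2.06 inferred reads in every library of both genotypes, close to the smallest step, so a fold for 23 °C is not given. After the return WT reached 12.97 to 19.2 RPKM and the mutant 1.51 to 3.73, without overlap. The genotype difference in phase IV was called (limma, adjusted p = 6.75e-08). The genotype difference in the change from 15C to p15C was called too (0.00810), beside 1.05% of all genes. Within the mutant this change was also called (-1.30 ± 0.24, 0.00373), beside 1.83% of all genes, on 3.07 to 7.19 inferred reads after the return. wago-10, another gene of the WAGO group, was called as higher in the mutant in phase IV (1.01 ± 0.35, 0.0782) at 5.07 to 9.13 reads in WT and 8.12 to 23.4 in the mutant.

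Among the other small RNA genes 1 was called at 2-fold in any comparison. Of 23 genes for siRNA amplification and processing, 2 passed as higher and 6 as lower in the mutant over the 4 phases, none at 2-fold, beside 12% and 11.2% of all tested genes. At 23 °C in the mutant 4 of the 23 passed as higher and 6 as lower, beside 35.6% and 7.86% of all genes. Of these henn-1, the methyltransferase that protects the ends of piRNAs, was called (-1.05 ± 0.26, 0.0127), beside 6.41% of all genes. Its mutant libraries of 23C-G2 to G6 held only 6.57 to 12.05 inferred reads. In WT, where it was not called, henn-1 averaged 36.7 ± 2.58 RPKM in phase I, 21.6 ± 11.1 in phase II and 27.8 ± 3.47 in phase III (SD). Of 12 partners of nuclear RNAi and inheritance, 7 passed as higher and 1 as lower over the 4 phases, beside the same 12% and 11.2%. None of the 12 was called at 2-fold.

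In phase I 4 of 15 sperm genes, none of 10 oocyte genes and 3 of 11 tested somatic genes were called at 2-fold, beside 7.82% of all genes. For the calls below the shares of all genes were 5.7%, 5.85% and 7.99% in phases II to IV. They were 6.58% at 23 °C in WT and 6.41% in the mutant, and 3.58% at p15C in WT and 1.83% in the mutant. For the genotype difference in the 23 °C response the share was 2.52%. Of the sperm genes 3 were called as higher in the mutant in phase I, namely the major sperm protein genes msp-3 (2.08 ± 0.42, adjusted p = 0.00147), msp-10 (1.602 ± 0.467, 0.0295) and msp-19 (1.59 ± 0.50, 0.0475), which are near-identical copies that may share reads. fer-1, needed for sperm membrane fusion, was called as lower in phases I to III (-1.39, -1.64 and -1.29). It averaged only 1.57, 2.53 and 1.92 RPKM there in the mutant and 5.29, 8.99 and 5.58 in WT, so these folds rest on low values. The same 3 msp genes were called as higher at p15C than at 15C in WT (1.34 to 1.37), and msp-10, spe-10 and msp-3 at 23 °C in WT (1.49, 1.34 and 1.14). Of these spe-10 started from a low 2.98 ± 1.85 RPKM in WT phase I. msp-3 was also called for the genotype difference in the 23 °C response (-1.89). Over the 4 phases together fer-1 (-1.09), msp-3 (1.03), unc-119 (1.48) and unc-54 were called, beside 5.91% of all genes. Of 10 oocyte genes only egg-1, an oocyte surface protein needed for fertilization, was called in phase II (1.09 ± 0.24, 0.00493), beside 5.7% of all genes. Of 11 tested somatic genes, the neuronal gene unc-119 was called as higher in the mutant in all 4 phases (1.19, 1.03, 1.14 and 2.55) and at p15C over 15C in the mutant (1.49). The muscle myosin gene unc-54 was called as lower in the mutant in phases I and IV and at 23 °C in WT, where its slope also fell, and its genotype difference in the 23 °C response was called in the direction of the mutant. Phase I levels were 10.5 ± 1.84 RPKM for WT and 0.537 ± 0.214 for the mutant (SD, n = 3). Phase IV levels were 8.30 ± 7.15 and 0.420 ± 0.121, and WT held 0.71 ± 0.479 in phase III. Since the low groups lie under the pseudocount of 1 RPKM, no fold is given. The synaptic gene rab-3 was called as higher in the mutant in phase I (1.12) and lower at 23 °C in the mutant (-1.91), and the yolk protein gene vit-6 as higher at p15C in WT (1.01). In WT vit-6 averaged only 2.3 ± 0.419 RPKM in phase I and 5.68 ± 1.33 in phase IV, so its fold too rests on low values.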

How the data were processed

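Small RNA was cloned by a procedure that does not depend on a 5′ monophosphate. Per the labels and the study's methods the authors aligned reads with Bowtie 0.12.7 to the WS190 mRNA database, and deposited antisense RPKM values scaled to total reads and exon length, 1 column per library. The sources used here do not say how reads that match several genes were treated. No value was exactly 0, and reads and depth were inferred from the step between low values (for nrde-3 and ergo-1, 23 of 24 values each were whole reads within 0.1). No columns of other samples were present.

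Values were used as log2(RPKM + 1), so that fold changes of low genes are understated. Where a gene had several transcripts (616 genes), the transcript of highest average represented it. The 19839 genes averaging 1 RPKM or more were fitted with limma 3.58.1 in R 4.3.3 (trend, two-sided, Benjamini-Hochberg over all tested genes). Model 1 held 8 means (2 genotypes and 4 phases), model 2 the means of 15C, 23C-G1, 23C-G2 to G6 and p15C per genotype, and slopes used the 12 libraries at 23 °C. Passed means an adjusted p of at most 0.1, and called means in addition a change of at least 2-fold. No count model was used because the values are RPKM. The fits were tested on simulated data. Alternatives were pseudocounts of 10 and 0.1 RPKM, no filter, a minimum of 5 reads, median-of-ratios scaling, 1 read taken off, the generation as a block, 23C-G1 included at 23 °C, and each library left out. The text names the 10 members, up to 4 called genes per list and comparison, hsp-16.48, and the genes most alike by correlation. Members and lists were chosen with earlier results of these data known. Gene overlaps come from the WBcel235 annotation, and no position is printed since the files use WS190. Plots were made with matplotlib in python.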

Additional observations from a re-analysis of the deposited data

Results flagged for a closer look

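In the change from 15C to p15C, csr-1 stood out because every WT library rose above its 15C range and every mutant library fell below it. The difference between genotypes was -0.48 on the log2 scale (limma, adjusted p = 0.218, unadjusted p = 0.00531), so it did not pass after adjustment.

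nrde-3 in WT 23C-G2, at 9.93 RPKM, lay far from the other 4 WT libraries of 23C-G2 to G6 (4.70 to 5.83 RPKM), by Dixon's ratio of 0.784. Of 20 groups of 5 libraries examined this was the only one so marked, and chance marks about 1 in 20.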

How the results depend on the processing

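Of 2040 recomputed values of single members, 34 lost and 22 gained an adjusted p of at most 0.1, and none that passed in either fit changed sign. A further 85 changed sign where neither fit passed, with main values of at most 0.32 in size. The count of members that passed from 15C to p15C fell from 1 to 0 in WT with a pseudocount of 10 RPKM, with at least 5 reads, with median-of-ratios scaling and with 1 read taken off. In the mutant it rose from 0 to 1 with a pseudocount of 10 RPKM and with at least 5 reads (also 1 at 2-fold). At 2-fold, median-of-ratios scaling raised phase I, phase II and the mean of 4 phases from 0 to 1 (hrde-1 in each). With generation as a replicate block 6 members passed in phase II (prg-1, ppw-2 and wago-4 in addition, adjusted p = 0.0615, 0.0669 and 0.0917), 2 were called at 2-fold in phase IV (alg-4 in addition, 1.27, 0.0155) and 1 (prg-1) passed for the difference in 23 °C response (-0.40, 0.0896). ppw-2 in phase I (0.0840) and alg-3 over the 4 phases (0.0862) also passed with the block. Same-numbered libraries of the 2 genotypes deviated together with r above 0.1 in 10 of 12 pairs (-0.016 to 0.367), and 9 of 12 correlated best with their own number. This is a hint of pairing in the data. The numbers were not taken as pairs because the labels name no shared batch and 2 pairs did not exceed 0.1.

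With each library of a comparison left out in turn the number of members that passed ran from 3 to 5 in phase I, 2 to 4 in phase II, 3 to 4 in phase IV, 6 to 7 for the mean of 4 phases, 1 to 2 at 23 °C in WT, 0 to 3 at 23 °C in the mutant, and 0 to 1 for p15C in the mutant. It was 3 in every such fit of phase III and 0 in every such fit of p15C in WT. At 2-fold it ran from 0 to 1 in phase I (alg-3 without mutant 15C-G1, otherwise hrde-1), in phase II and for p15C in the mutant. The causes were not tested. Depth limits alg-3, alg-4 and nrde-3 most, with 1 to 32.3 inferred reads per library.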
